A study of Homo sapiens with 4 samples.

Results

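HMGA2 and the genes that form a circuit with it were followed in RCC4 cells, an established line of human clear cell renal cell carcinoma (ccRCC), after silencing of PML. The 7 genes were HMGA2, the long non-coding RNA RPSAP52 that is transcribed from the opposite strand of its locus, the paralogue HMGA1, the RNA-binding protein genes IGF2BP1, IGF2BP2 and IGF2BP3, and LIN28B. They were taken by symbol from the 59050 genes of the count table. Their change between shPML and shCtrl was already known when they were selected, so their values in that comparison are a description and carry no test. The shPML cells carried a doxycycline-inducible short hairpin against PML in the Tet-pLKO-puro lentiviral vector, and shCtrl cells carried a scrambled hairpin in the same vector. Cells of both groups were puromycin-selected bulk populations kept in serum free of tetracycline, and both received doxycycline at 100 ng/ml for 96 h, so neither group is an untreated one. RNA sequencing used 1 hairpin, shPML#1, in 2 experiments with independent infections, which gave 2 shPML and 2 shCtrl libraries. Of the 7 genes, 6 had a read in at least 1 library and 5 passed the filter on low counts that left 16516 tested genes.

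HMGA2 and HMGA1 are small chromatin proteins that bind AT-rich DNA in the minor groove through AT-hook motifs. HMGA2 is abundant in embryonic tissue, nearly silent in most adult tissue, and returns in many tumours, and both proteins have been found in the heterochromatin foci of senescent cells. The let-7 microRNAs repress HMGA2 through its 3′ UTR, LIN28B blocks the maturation of let-7, and IGF2BP proteins bind and stabilise target mRNAs. RPSAP52 has been described in tumour cells as a partner of the IGF2BP2 protein.

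The sequences that connect these genes are the seed of the let-7 family and its matches in their 3′ UTRs. In RefSeq (GRCh38.p14) 9 mature microRNAs shared the seed, which is printed in capitals (bases 2 to 8) in 3 of them.
hsa-let-7a-5p: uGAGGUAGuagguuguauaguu
hsa-let-7i-5p: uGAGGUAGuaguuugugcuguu
hsa-miR-98-5p: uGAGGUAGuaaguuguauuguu
A 7-base match (CTACCTC) pairs with this seed, and an 8-base match (CTACCTCA) has an A after it. Matches were sought on the sense strand of the 3′ UTR of the canonical Gencode transcript, where each 8-base match is also a 7-base match. Of 19190 such 3′ UTRs, 9.71% held a 7-base match and 3.74% an 8-base match. The 3′ UTR of HMGA2, with 2999 bases, held 4 matches, and the sites are shown with the match in capitals.
HMGA2, chr12:65963299-65963320 (+): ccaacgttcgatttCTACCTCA
HMGA2, chr12:65964534-65964555 (+): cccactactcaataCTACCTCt
HMGA2, chr12:65964946-65964967 (+): tgacttgcaaagacCTACCTCc
HMGA2, chr12:65965799-65965820 (+): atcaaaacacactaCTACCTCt
As many 7-base matches were found in 12 of the 19190 3′ UTRs, or 0.0625%, and IGF2BP1 and LIN28B were also among these, with 4 each. HMGA1, IGF2BP2 and IGF2BP3 held 1 match each.
HMGA1, chr6:34245830-34245851 (+): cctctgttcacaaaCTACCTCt
IGF2BP2, chr3:185644220-185644241 (-): acacacagaagaagCTACCTCA
IGF2BP3, chr7:23311795-23311816 (-): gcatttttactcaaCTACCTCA
Of 3′ UTRs within 20% of the length of that of HMGA2, 14.2% held a 7-base match. Genes known for let-7 control were among those selected, so the number of matches is no independent finding. HMGA2 transcripts differ in their ends, and of 10 with an annotated 3′ UTR only 2 held a match. These were the canonical transcript and a short one annotated for nonsense-mediated decay. Counts per gene do not separate these transcripts.

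The libraries held 27781193 to 69870617 counted reads, so 3 reads, the limit for a gene with none, correspond to 0.0418 to 0.109 CPM (counts scaled to the same library size by TMM). PML itself was measured at 93.1 CPM with shCtrl and 54.9 with shPML in replicate 1, and at 136 and 87.6 in replicate 2. Both shPML libraries were below both shCtrl libraries, with a log2 fold change of -0.69 ± 0.30 (SE), which did not pass the quasi-likelihood test of edgeR without a block for the experiment (adjusted p = 0.32) and passed it with the block (-0.70 ± 0.11, adjusted p = 4.19e-07). All 10 renal carcinoma markers were detected, PAX8 among them at 302 to 427 CPM. The shPML library of replicate 2 stood apart, since 19 of 20 macrophage markers were highest in it. Their summed level was 366 CPM there and 6.67 to 8.06 CPM in the other 3 libraries. LYZ had 2349 reads in it against 1 to 4 elsewhere, CD14 had 1177 against 2 to 4, and PTPRC had 346 against 0 to 7, while C1QB was at 0. In that library 175 genes had at least 30 reads and at most 5 in each of the others, against 1, 1 and 15 such genes in the other libraries. The T cell marker CD3E was at 0 in all 4 libraries. The part of this RNA in the results was not tested, so values of replicate 1, whose libraries did not show it, are given for the genes and lists described. In bulk RNA a smaller number of expressing cells cannot be told apart from less RNA in each cell.

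HMGA2 was the gene of this circuit with the largest difference. It was at 130 CPM with shCtrl and 563 CPM with shPML in replicate 1, and at 129 and 823 CPM in replicate 2. The shCtrl libraries were close to each other (129.6 ± 0.22 CPM, SD, n = 2), the shPML libraries were not (693 ± 184 CPM, SD, n = 2), and the groups did not overlap. Ratios of shPML to shCtrl were 4.34 and 6.36 in replicates 1 and 2, and the fitted log2 fold change was 2.42 ± 0.23 (SE). Without the shPML library of replicate 2 it was 2.12. The plot of CPM in each library shows this step beside those of the other genes.

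**Figure D1:**
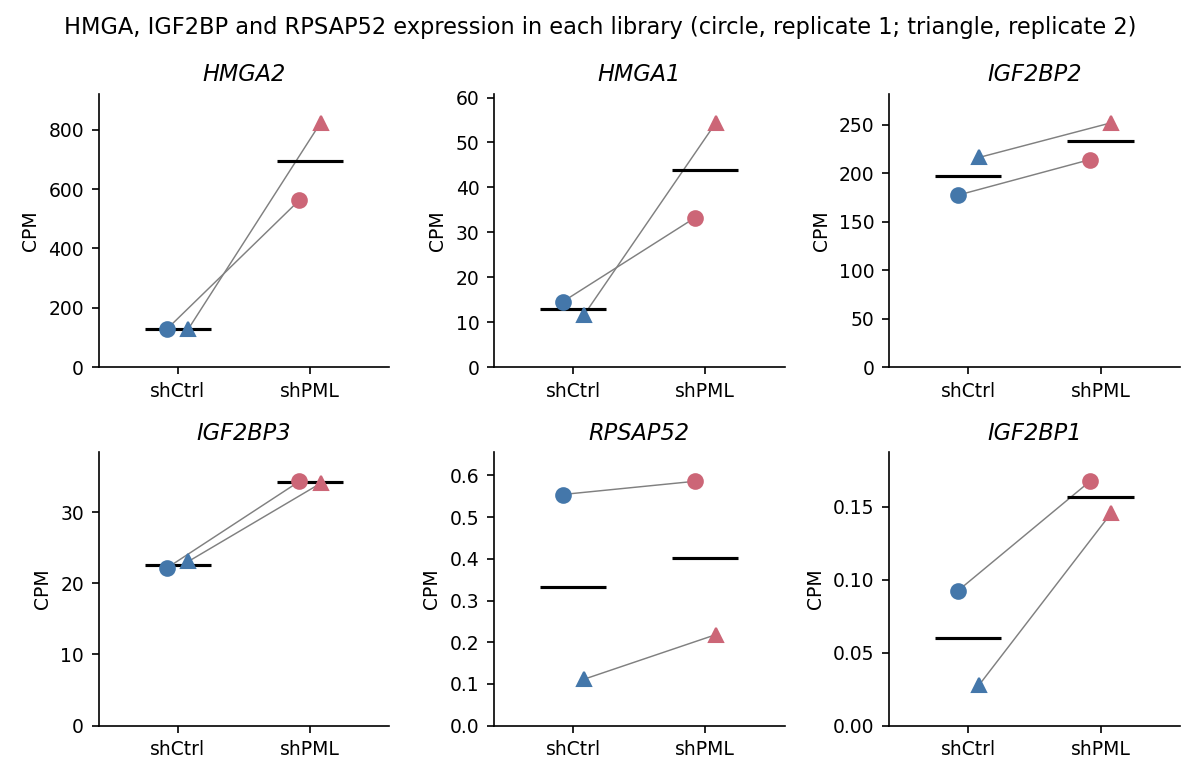
CPM of 6 genes in the shCtrl (blue) and shPML (red) libraries, on linear axes from 0. Circles are replicate 1, triangles replicate 2, thin lines join libraries of an experiment and bars are means. HMGA2 was at 130 and 129 CPM in shCtrl and at 563 and 823 CPM in shPML, whereas RPSAP52 and IGF2BP1 were under 1 CPM in every library.

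HMGA1, whose product binds the same kind of DNA, was at 14.5 CPM with shCtrl and 33.2 CPM with shPML in replicate 1, and at 11.5 and 54.4 CPM in replicate 2. Here too both shPML libraries were above both shCtrl libraries, with ratios of 2.28 and 4.72. The fit gave a log2 fold change of 1.74 ± 0.29 (SE), and it was 1.35 without the shPML library of replicate 2. Reads of HMGA1 can be shared with its processed pseudogenes. The 8 annotated ones together held 11 to 37 reads in a library, against 415 to 2381 on HMGA1. As a share of the reads on both HMGA genes per exon length, HMGA2 took 59.7% with shCtrl and 73.7% with shPML in replicate 1, and 65.0% and 71.5% in replicate 2, so its share was higher in shPML in both experiments. The size of the share depended on the length used. Per length of the canonical transcript it was 80.6% and 88.8% in replicate 1 and 84.0% and 87.6% in replicate 2.

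Of the IGF2BP genes, which encode KH-domain proteins that bind mRNA, IGF2BP3 was at 22.2 CPM with shCtrl and 34.3 CPM with shPML in replicate 1, and at 23.1 and 34.0 CPM in replicate 2. Replicates lay close together and the groups did not overlap (22.6 ± 0.63 and 34.2 ± 0.20 CPM, SD, n = 2 each). The log2 fold change was 0.59 ± 0.15 (SE). Without the shPML library of replicate 2 this was 0.60. IGF2BP3 shares 1521 exon bases with MALSU1, a mitochondrial ribosome assembly gene on the opposite strand, and the strand setting of the counting is not given in the sources used here. MALSU1 was at 42.7 and 34.2 CPM in shCtrl and shPML of replicate 1 and at 51.6 and 41.2 CPM in replicate 2, which is the opposite direction to IGF2BP3.

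IGF2BP2, the most abundant of the 3, was at 177 CPM with shCtrl and 214 CPM with shPML in replicate 1, and at 216 and 252 CPM in replicate 2. The shPML library of replicate 1 was below the shCtrl library of replicate 2, so the groups overlapped, although the ratio within each experiment was above 1 (1.21 and 1.17). IGF2BP2 made up 87.4% to 91.3% of the IGF2BP reads per exon length in the 4 libraries. IGF2BP1 had 5 reads with shCtrl and 12 with shPML in replicate 1, and 1 and 4 in replicate 2. Its level was 0.0278 to 0.167 CPM, the exact Poisson intervals (95%, counting error only) overlapped within both experiments, and it was not tested.

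RPSAP52 had 30 reads with shCtrl and 42 with shPML in replicate 1, and 4 and 6 in replicate 2. These are 0.554 CPM (95% Poisson interval 0.374 to 0.791), 0.586 (0.422 to 0.792), 0.111 (0.0303 to 0.285) and 0.218 (0.0801 to 0.475). The intervals of shCtrl and shPML overlapped in each experiment, and a difference was not detectable at this depth. The fitted log2 fold change was 0.28 ± 0.98 (SE). It was -0.64 without the shPML library of replicate 1, -0.44 without the shCtrl library of replicate 2, 1.87 without the shCtrl library of replicate 1 and 0.78 without the shPML library of replicate 2. These fits had no block, so leaving out a library made the experiments uneven between the groups, and reads were far fewer in replicate 2. Within experiments the log2 ratios were 0.08 and 0.91, and with the block the log2 fold change was 0.38 ± 0.81 (SE). LIN28B had 0 reads in all 4 libraries, which by the limit of 3 reads allows up to 0.0418 to 0.109 CPM, and by the upper bounds of the two-sided Poisson intervals used for RPSAP52 up to 0.0515 to 0.134 CPM. Its paralogue LIN28A had 2 reads with shCtrl and 1 with shPML in replicate 1 and 0 in both libraries of replicate 2.

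Of the 5 genes that passed the filter, 3 (HMGA2, HMGA1 and IGF2BP3) had a log2 ratio above 0.5 in both experiments, and 0 were below -0.5 in both. Among all tested genes 9.43% were above and 11.7% below by the same rule. In replicate 1 alone the same 3 were above 0.5, as were 14.5% of all tested genes, and 17.9% were below -0.5. The genes had been selected on these ratios, so nothing is read from the counts. Ratios of HMGA1 were 1.19 and 2.24 on the log2 scale in the 2 experiments, and those of IGF2BP3 were 0.63 and 0.56. Whether a ratio differed between experiments could not be tested with 1 library of each kind in each.

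**Figure D2:**
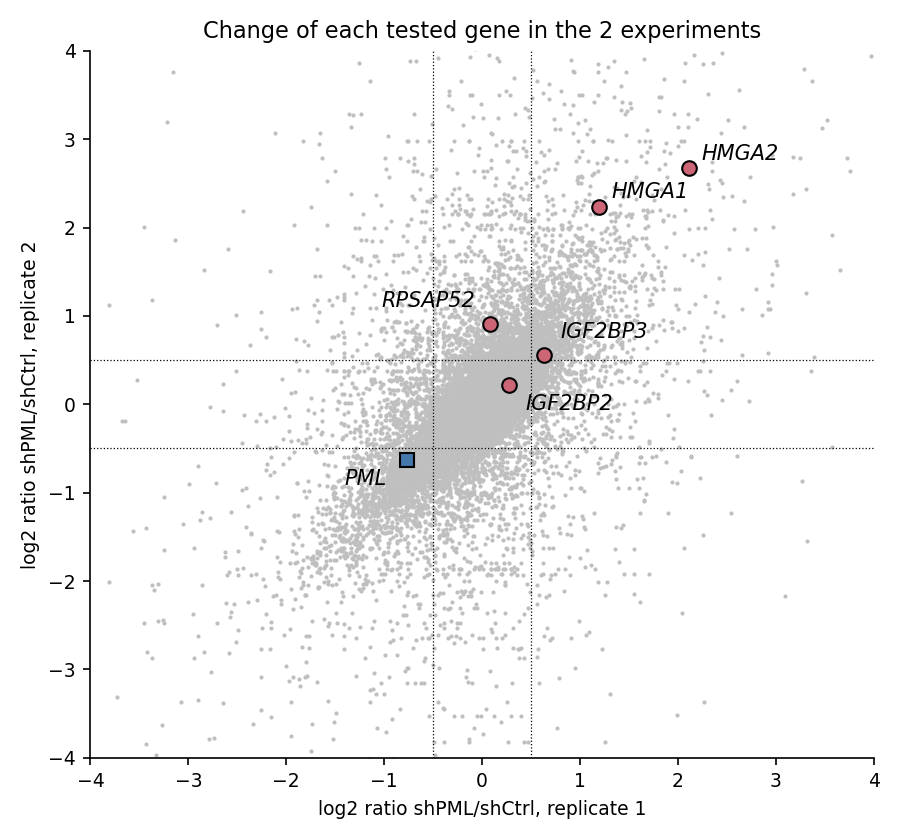
Log2 ratio of shPML to shCtrl in replicate 1 (horizontal) and replicate 2 (vertical) for all tested genes (grey, of which 261 lie beyond the axes), the 5 genes that passed the filter (red circles) and PML (blue square). Dotted lines mark -0.5 and 0.5. HMGA2 lies at 2.12 and 2.67, HMGA1 at 1.19 and 2.24, and IGF2BP3 just past the lines at 0.63 and 0.56.

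Levels of different genes can be compared only per length. Per kb of merged exons IGF2BP2 had the highest mean over the 4 libraries (56.2 CPM per kb), followed by HMGA2 (29.3), HMGA1 (12.2), IGF2BP3 (6.65), RPSAP52 (0.181), IGF2BP1 (0.0123) and LIN28B (0). The order of the leading pair turned on the library and the length used. Per kb of merged exons, HMGA2 was below IGF2BP2 in all 4 libraries, with 58.6 against 65.8 in shPML of replicate 2. HMGA2 has 14037 bases of merged exons and 4117 in the canonical transcript, because its isoforms end in different exons. IGF2BP2 has 3826 and 4283. Reads were counted over the merged exons, so the canonical length does not match them in either gene. Per kb of the canonical transcript, HMGA2 was at 31.5 and 31.4 in the shCtrl libraries, below IGF2BP2 at 41.4 and 50.5, and at 137 and 200 in the shPML libraries, above IGF2BP2 at 49.96 and 58.8. RPSAP52, in the libraries of replicate 1 where it was highest, was at 0.272 and 0.288 per kb of merged exons, against 46.3 and 55.9 for IGF2BP2.

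The 2 experiments were also compared with each other, replicate 2 against replicate 1 in the model with condition, a contrast that did not select the genes. Among all tested genes 8.93% were called higher and 4.53% lower in replicate 2 (beyond 0.5 on the log2 scale at an adjusted p under 0.05), and of the 5 genes 0 were called. RPSAP52 had the largest difference, -1.83 ± 0.84 (SE) on the log2 scale, with 30 and 42 reads in replicate 1 and 4 and 6 in replicate 2 (edgeR, adjusted p = 0.109). HMGA2 differed by 0.28 ± 0.10 (adjusted p = 0.0400) and IGF2BP2 by 0.26 ± 0.10 (adjusted p = 0.0455), both under the fold threshold. With RLE normalization, with at least 10 reads in every library and with DESeq2, the adjusted p of HMGA2 was 0.0547 to 0.161 and that of IGF2BP2 0.0515 to 0.0778. In HMGA2 the shCtrl libraries were at 130 and 129 CPM, and the shPML libraries at 563 and 823 CPM. HMGA1 (0.22 ± 0.15, adjusted p = 0.285) and IGF2BP3 (0.02 ± 0.13, adjusted p = 0.931) did not pass. The macrophage markers of the shPML library of replicate 2 enter this contrast, and their part in it was not tested.

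In the coordinates of the counts (GRCh38), HMGA2 lies on chromosome 12 from 65824131 to 65966295 on the plus strand, and RPSAP52 from 65758020 to 65826997 on the minus strand. The spans overlap over 2867 bases and share 0 exon bases. The first exons of RPSAP52 (65825975 to 65826997) lie in the first intron of HMGA2, between the end of exon 1 at 65825381 and the start of exon 2 at 65828001, so reads on exons of one gene do not fall on exons of the other. Whether reads from that intron of HMGA2 were counted on RPSAP52 was not tested, since the strand setting of the counting is not given. HMGA2-AS1, which shares 299 exon bases with HMGA2 on the opposite strand, had 0 reads in all 4 libraries. RPSA, the ribosomal protein gene from which RPSAP52 derives, was at 644 and 716 CPM in shCtrl and shPML of replicate 1 and at 503 and 494 CPM in replicate 2, with no call in either fit (0.08 ± 0.24, adjusted p = 0.921). The 73 other RPSA pseudogenes together held 576 to 1575 reads in a library. Reads of such copies are uncertain, since how multimapped reads were counted is not given in the sources used here.

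Within 1 Mb of the start of HMGA2, 10 other genes were tested, and 0 were called without the block and 1 with it. Over all tested genes, 0.0787% were called higher and 0.333% lower without the block, and 8.57% higher and 10.5% lower with it. Without the block, no adjusted p was smaller than 0.0484, and 2958 genes reached an unadjusted p under 0.05. The gene called with the block was AC026124.2, with 17 and 10 reads in shCtrl and 3 and 0 in shPML. Of the 7 neighbours with a mean above 1 CPM, LINC02454 had the largest absolute log2 fold change, 0.49 ± 0.39 (SE, adjusted p = 0.608), with log2 ratios of 0.41 and 0.60 in replicates 1 and 2. MSRB3, a methionine sulfoxide reductase gene upstream, was at 44.01 and 43.2 CPM in shCtrl and shPML of replicate 1 and at 46.1 and 47.2 CPM in replicate 2 (0.00 ± 0.15). LEMD3, which encodes an inner nuclear membrane protein, was at 23.9 and 26.2 CPM and at 28.8 and 29.8 CPM (0.08 ± 0.18). AC107308.1, whose span overlaps that of HMGA2 on the same strand with 0 shared exon bases, had 16 and 29 reads in replicate 1 and 3 and 26 in replicate 2 (1.75 ± 0.91, adjusted p = 0.398).

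**Figure D3:**
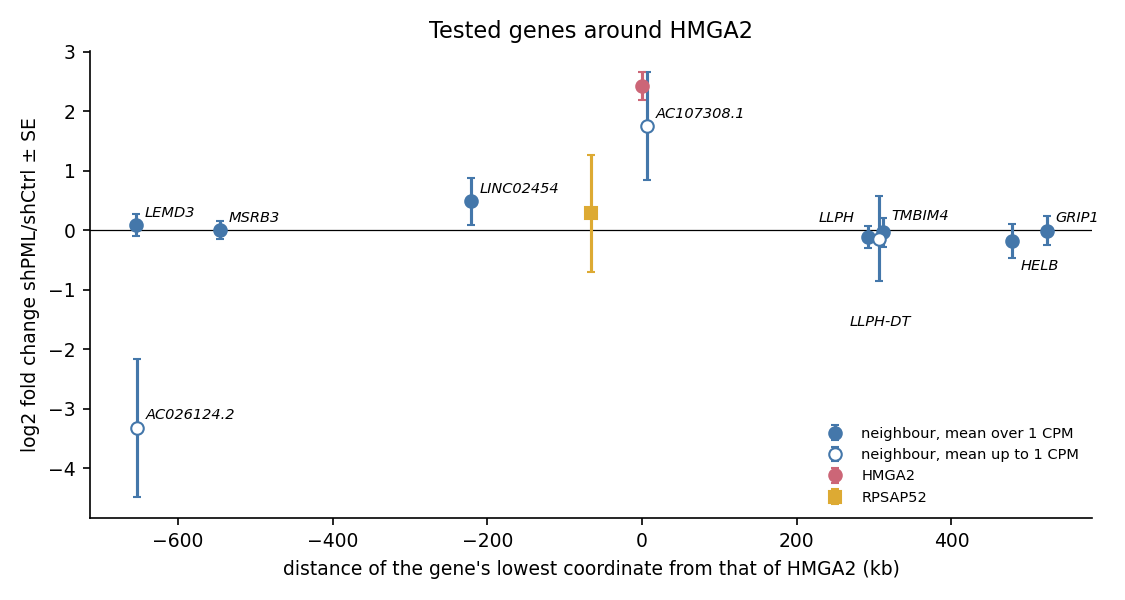
Log2 fold change (± SE) of HMGA2 (red), RPSAP52 (yellow) and the 10 other tested genes within 1 Mb, by the distance of their lowest coordinate from that of HMGA2 in kb. Filled blue points have a mean above 1 CPM and open ones up to 1 CPM. HMGA2 stands at 2.42 and the 7 filled neighbours lie within 0.49 of 0, while the open points rest on few reads.

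Genes whose profile over the 4 libraries was among the 5 most like that of HMGA2, by the root mean square distance of centred log2 CPM, included AL139412.1 (0.0936), GASK1B (0.105), LINC01814 (0.140) and AC055839.2 (0.172). GASK1B was at 2.88 and 10.7 CPM in shCtrl and shPML of replicate 1 and at 2.97 and 17.7 CPM in replicate 2. AL139412.1, LINC01814 and AC055839.2 were below 4 CPM in every library, so their place rests on few reads.

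Genes with a let-7 seed match were then compared with those without, HMGA2 and the others of the circuit left out. The median log2 fold change was 0.02 for the 517 tested genes with an 8-base match, 0.02 for the 1357 with a 7-base match, and 0.01 for the 10882 with none. These groups were not matched for 3′ UTR length, which had medians of 3351, 3184 and 1197 bases. With the block, 10.8% of the genes with an 8-base match were called higher and 13.0% lower, against 9.94% and 12.4% of the 12239 tested genes with a 3′ UTR. The median ratios of genes with an 8-base, a 7-base and no match were 0.0016, -0.0049 and 0.0081 in replicate 1 and 0.011, 0.028 and -0.0070 in replicate 2. The 160 genes with at least 2 matches had a median log2 fold change of -0.02, with median ratios of -0.014 and 0.074 in the 2 replicates. Among the 26 genes with 3 or more 7-base matches, 3 were called higher and 2 lower with the block, and past 0.5 in replicate 1 were 2 and 2 of these. The mature let-7 RNAs were not measured, since poly(A) mRNA libraries do not hold them.

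**Figure D4:**
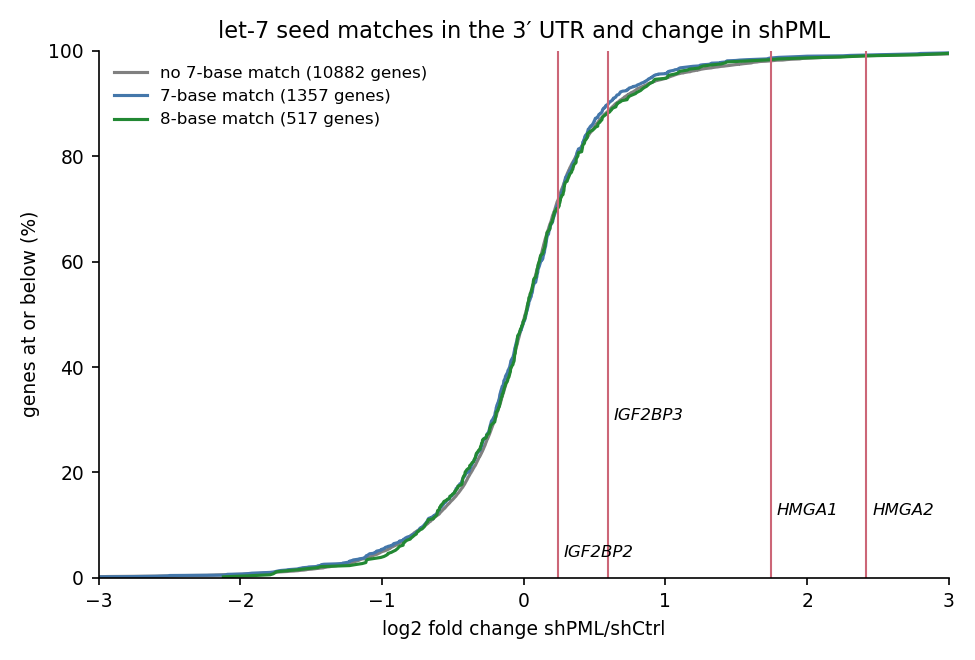
Cumulative share of tested genes (%) by log2 fold change, for genes with no 7-base let-7 match (grey, 10882), with a 7-base match (blue, 1357) and with an 8-base match (green, 517). Red lines mark IGF2BP2 (0.24), IGF2BP3 (0.59), HMGA1 (1.74) and HMGA2 (2.42). The curves lie on each other, with medians of 0.01, 0.02 and 0.02.

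Genes linked to the circuit by its biochemistry, by family name or by oncofetal expression were read from 7 lists. The genes of the circuit themselves were left out. The lists were written with earlier results of these data known, so their counts and medians are no independent finding. Of 99 listed genes 94 were found by symbol and 76 were tested. Without the block 0 were called in either direction, while an unadjusted p under 0.05 was reached by 8 in the higher and 23 in the lower direction. Of all 16516 tested genes, 1289 and 1669 reached it. With the block 6 were called higher and 22 lower, of which 5 and 20 were past 0.5 in replicate 1 alone. Among all tested genes 8.57% were called higher and 10.5% lower with the block, and these shares are the background for the counts of each list. The median log2 fold change was -0.15, against 0.01 over all genes tested, and the median log2 ratio in replicate 1 was -0.20.

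The let-7 pathway list holds genes that make, trim or block let-7. Its 6 tested members had 0 calls in either fit, with median log2 ratios of -0.13 and 0.011 in replicates 1 and 2. TUT4, which adds uridines to the let-7 precursor with LIN28, was at 72.0 and 56.2 CPM in shCtrl and shPML of replicate 1. In replicate 2 it was at 63.3 and 50.4 CPM (-0.34 ± 0.16, edgeR adjusted p = 0.349). With the block its adjusted p was 0.0175 at -0.34, under the fold threshold. TUT7 of the same list went the other way, from 22.1 to 26.7 CPM and from 19.2 to 24.0 CPM (0.30 ± 0.17). MIRLET7BHG, a host transcript of let-7 genes, was at 0.990 to 1.39 CPM in the 4 libraries. MIR99AHG, also of this list, was at 2.33 and 1.42 CPM in shCtrl and shPML of replicate 1. In replicate 2 it was at 3.14 and 2.07 CPM (-0.65 ± 0.40, edgeR adjusted p = 0.480, with the block 0.192).

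Of 27 tested let-7 targets, 5 were called higher and 8 lower with the block and 0 without it, where the background was 8.57% and 10.5% of all tested genes. In replicate 1 alone, 4 and 7 of these were past 0.5. CCND1, which encodes cyclin D1, was at 134 and 221 CPM in shCtrl and shPML of replicate 1 and at 174 and 367 CPM in replicate 2, with both shPML libraries above both shCtrl libraries (0.93 ± 0.29, adjusted p = 0.192, with the block 1.07e-10). ARID3A, which encodes an AT-rich interaction domain factor, was at 20.9 and 30.8 CPM and at 29.4 and 48.2 CPM (with the block 0.64 ± 0.12, adjusted p = 3.46e-05). Its paralogue ARID3B went the other way, from 25.4 to 8.24 CPM and from 20.2 to 8.95 CPM (with the block -1.41 ± 0.15, adjusted p = 1.82e-11). NR6A1, an orphan nuclear receptor gene with 5 7-base matches, was at 4.88 and 6.90 CPM and at 4.78 and 7.82 CPM (with the block 0.60 ± 0.23, adjusted p = 0.0379).

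NRAS, a classical let-7 target, was called lower with the block. It was at 146 and 99.5 CPM in shCtrl and shPML of replicate 1 and at 199 and 114 CPM in replicate 2 (with the block -0.67 ± 0.10, adjusted p = 3.71e-07, without it 0.182). HRAS was at 39.98 and 34.98 CPM and at 38.9 and 29.9 CPM, with no call in either fit (with the block -0.28, adjusted p = 0.0727). MYC was at 320 and 358 CPM and at 466 and 492 CPM, with no call in either fit (with the block 0.12 ± 0.09, adjusted p = 0.365). E2F2 and RRM2, which serve S phase as a transcription factor and a ribonucleotide reductase subunit, were lower with the block (-0.91 and -0.80). E2F2 was at 11.1 and 6.68 CPM and at 13.1 and 6.07 CPM, and RRM2 at 225 and 134 CPM and at 223 and 124 CPM.

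Of 13 tested mRNAs described as clients of IGF2BP proteins, 0 were called higher and 3 lower with the block, and the median log2 fold change was 0.11, as was the median ratio in replicate 1. The 3 were NRAS, CCND3 and ABCB1. CCND3, which encodes cyclin D3, was at 98.2 and 44.4 CPM in shCtrl and shPML of replicate 1 and at 99.6 and 54.9 CPM in replicate 2 (with the block -1.005 ± 0.11, adjusted p = 1.11e-10, without it 0.0727). ABCB1, a drug efflux pump gene, was at 130 and 82.4 CPM and at 124 and 65.4 CPM (with the block -0.79 ± 0.11, adjusted p = 2.22e-08). IGF2, after which the family is named, was near the limit of detection, at 0.0558 to 0.473 CPM.

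Of 10 tested genes linked to HMGA2 in other cells, 1 was called higher and 4 lower with the block, and in replicate 1 alone 1 and 4 of these were past 0.5. The median log2 fold change was -0.35, against 0.01 over all genes tested, with median ratios of -0.39 and -0.32 in replicates 1 and 2. PLAG1, a zinc-finger growth gene placed downstream of HMGA2, was at 1.18 and 3.03 CPM in shCtrl and shPML of replicate 1 and at 0.278 and 3.20 CPM in replicate 2, so both shPML libraries were above both shCtrl libraries (2.06 ± 0.69, adjusted p = 0.218, with the block 2.25 ± 0.45, 5.21e-05). CCNA2, the cyclin A2 gene, was lower, from 56.0 to 30.1 CPM and from 69.0 to 31.9 CPM (with the block -1.004 ± 0.12, adjusted p = 5.49e-10). SNAI2, a repressor of epithelial genes, went from 25.1 to 13.2 CPM and from 34.3 to 13.0 CPM (with the block -1.15 ± 0.14, adjusted p = 4.87e-10). RB1, the retinoblastoma gene, went from 66.3 to 28.4 CPM and from 74.7 to 38.4 CPM (with the block -1.09 ± 0.12, adjusted p = 3.56e-11). TWIST1 and CDKN2A were at 0 in all 4 libraries.

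Senescence-associated heterochromatin, in which HMGA proteins have been found, is made with histone chaperones, HP1 proteins and a methyltransferase. Of 8 such genes tested, 0 were called higher and 3 lower with the block, and 2 of these 3 had a log2 ratio below -0.5 in replicate 1. CBX1, which encodes the heterochromatin protein HP1 beta, went from 95.6 CPM with shCtrl to 56.5 CPM with shPML in replicate 1 and from 99.0 to 41.5 CPM in replicate 2 (with the block -0.999 ± 0.12, adjusted p = 3.42e-10). SUV39H1, a histone H3 lysine methyltransferase gene, went from 38.4 to 24.0 CPM and from 40.9 to 27.1 CPM (with the block -0.64 ± 0.12, adjusted p = 3.25e-05). ASF1A, a histone chaperone gene, went from 30.4 to 23.6 CPM and from 38.1 to 20.7 CPM (with the block -0.62 ± 0.13, adjusted p = 0.000128). On the log2 scale its ratios were -0.37 and -0.88 in replicates 1 and 2, so it was the gene of the 3 that did not pass -0.5 without the library with macrophage markers.

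HMGB and HMGN proteins also belong to the high mobility group but bind DNA or nucleosomes without AT-hooks. Of 12 genes of this list tested, 0 were called higher and 4 lower with the block, with a median log2 fold change of -0.40 (-0.37 in replicate 1). HMGB2 was at 147 and 83.8 CPM in shCtrl and shPML of replicate 1 and at 119 and 63.9 CPM in replicate 2 (with the block -0.85 ± 0.11, adjusted p = 1.96e-09). HMGN2, a nucleosome-binding protein gene, was at 109 and 60.2 CPM and at 155 and 86.5 CPM (with the block -0.85 ± 0.11, adjusted p = 2.21e-09). HMGB1 was at 188 and 130 CPM and at 217 and 128 CPM (with the block -0.64 ± 0.10, adjusted p = 6.22e-07). None of the 3 was called without the block (adjusted p = 0.126 to 0.195).

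Among other oncofetal genes, which like HMGA2 are active before birth and in tumours, 8 of 11 had too few reads to be tested. Of the 3 tested, PEG10, an imprinted gene of retrotransposon origin, was called lower with the block, from 2400 to 1576 CPM in replicate 1 and from 3420 to 1623 CPM in replicate 2 (-0.84 ± 0.09, adjusted p = 1.69e-11). The median log2 ratios of the 3 were -0.61 and -0.017 in replicates 1 and 2. Of 6 pluripotent cell markers, DPPA4, TDGF1 and UTF1 were at 0 in all 4 libraries, and NANOG and SOX2 had at most 3 reads in a library. POU5F1, a pluripotency factor gene with processed pseudogenes, was at 30.8 and 15.7 CPM in shCtrl and shPML of replicate 1 and at 24.4 and 13.9 CPM in replicate 2 (with the block -0.90 ± 0.13, adjusted p = 1.61e-07, without it 0.106).

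**Figure D5:**
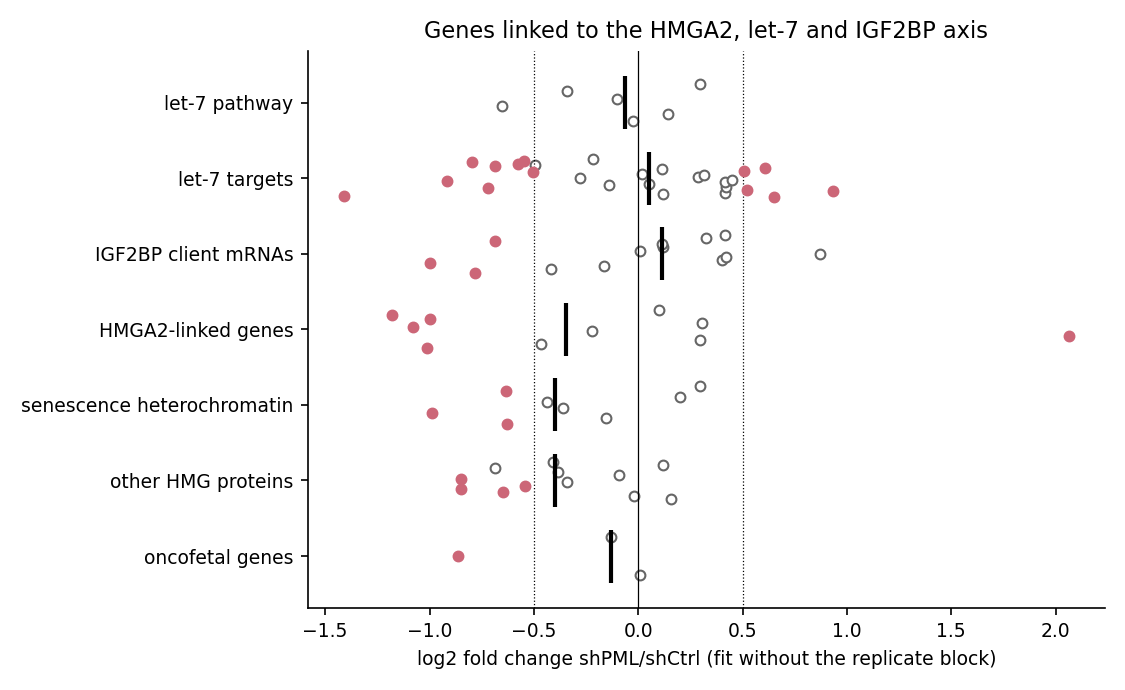
Log2 fold change of each tested gene of the 7 lists in the fit without the block. Red points were called with the experiment as a block, open points were not, thick bars are list medians and dotted lines mark -0.5 and 0.5. Of the 76 genes 6 were called higher and 22 lower, with PLAG1 at 2.06 and ARID3B at -1.41 as the outermost points.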

How the data were processed

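RNA sequencing of RCC4 cells gave 4 libraries, 2 of shPML and 2 of shCtrl. The authors used Trimmomatic 0.39 on single-end reads of stranded mRNA libraries, STAR for alignment to GRCh38, and featureCounts 1.6.4 for reads on Gencode genes. The deposited values are raw counts without normalization. The shCtrl and shPML columns that carry no number were read as replicate 1 by elimination. An update to the record put right an exchange of 2 sample labels, and the updated labels were used.

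edgeR 4.0.16 in R 4.3.3 was used on the counts (filterByExpr, TMM, quasi-likelihood test, Benjamini-Hochberg adjustment), with DESeq2 1.42.0 as an alternative. Called genes were beyond 0.5 on the log2 scale with an adjusted p under 0.05, thresholds of the study. Genes and lists were chosen with earlier results of these data known, and the macrophage list after its markers were seen. The study describes 2 experiments, and the replicate numbers were read as these. Deviations of same-numbered libraries from their group means had a correlation of 0.544 across genes, so calls with the replicate number as a block are given beside those without. Log2 ratios used a prior count of 0.5. The smallest two-sided p of an exact permutation test at this size is 0.333, so none was used. The named genes were all 7, PML, RPSA, selected partners (NRAS, HRAS, MYC, IGF2, LIN28A, PLAG1), up to 3 called genes for each list and direction, the tested genes within 1 Mb of HMGA2 and the 5 with the nearest profile. Other genes named (MALSU1, HMGA2-AS1, TUT4, TUT7, MIRLET7BHG, MIR99AHG, TWIST1, CDKN2A and markers) were added after their values were seen. Some genes within this rule are not reported here. Both tools were run on simulated counts with known changes, as a check of the code. These had the same scatter for every gene and no library with macrophage markers, so they do not measure the error of the calls here. Sites came from Gencode 44 transcripts and GRCh38, and microRNAs from RefSeq.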

Additional observations from a re-analysis of the deposited data

Results flagged for a closer look

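Among the 46 tested genes set by the rule for named genes, markers of cell types not included, 8 had shPML to shCtrl ratios of opposite sign in the 2 experiments. Whether the experiments differed was not tested, since each held 1 library of each kind. The log2 ratio of replicate 2 minus that of replicate 1 was 2.17 for IGF2 (-1.56 and 0.61), -1.37 for LLPH-DT (0.35 and -1.02), -0.82 for HELB (0.26 and -0.56) and -0.41 for LLPH (0.10 and -0.31). It was smaller for GRIP1 (0.189), RPSA (-0.179), TMBIM4 (0.139) and MSRB3 (0.0595). IGF2 and LLPH-DT were below 1 CPM in every library. HMGA2, HMGA1 and the IGF2BP genes were not among the 8.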

How the results depend on the processing

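Over all tested genes, 13 were called higher and 55 lower, and 0 and 0 of the listed genes. DESeq2 without the block called 577 and 898 (3 and 15 of the listed genes), edgeR with the replicate block 1415 and 1735 (6 and 22), and DESeq2 with the replicate block 1109 and 1386 (4 and 20). RLE normalization called 0 and 0, with a smallest adjusted p of 0.0501 and 2967 genes at an unadjusted p under 0.05. No filter gave 891 and 946 (3 and 13), and at least 10 counts in every library gave 53 and 144 (0 and 1). Leaving out each library in turn gave 0 to 187 higher and 0 to 61 lower, where the lone library of a group is assumed to vary like the other group. The 13 and 55 calls were all also made with the block. PML was called with the replicate block (-0.70 in edgeR, -0.69 in DESeq2) and with no filter (-0.68, adjusted p = 0.0237). With a log2 ratio beyond 0 in both experiments, 5 of the 5 genes of the circuit were higher, RPSAP52 among them on few reads. The share of all tested genes at this cut was not computed. The genes had been selected on these ratios, so nothing is read from this count. In fits without the block, leaving out each library moved the log2 fold change of RPSAP52 from -0.64 to 1.87, of HMGA2 from 2.12 to 2.66 and of HMGA1 from 1.35 to 2.05, and that of IGF2BP3 from 0.58 to 0.62. The difference of IGF2BP3 between experiments turned from 0.02 to -0.0066 with at least 10 counts in every library. By CPM without length and per canonical transcript (added after seeing the data), HMGA2 ranked 1 and IGF2BP2 2. The cause of these shifts was not tested. Replicate 1 alone, added after macrophage markers were seen, gave the same 3 genes past 0.5. With 2 libraries in a group, 1 hairpin and few reads on RPSAP52 and IGF2BP1, small differences were not detectable.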
